A study of Mus musculus with 22 samples.

Results

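The 10 genes described here encode members of the interleukin-1 (IL-1) family and the inflammasome machinery that acts on them. They were taken as a named list, *Il1a*, *Il1b*, *Il1rn*, *Il18*, *Il1r2*, *Il1rap*, *Nlrp3*, *Casp1*, *Casp4* and *Gsdmd*. The rule that names them uses no measured value, but the list was chosen with earlier results of these data known. All 10 were found among the 55421 genes of the monocyte count table and the 31134 genes of the macrophage table, and all 10 passed the filter on low counts in both. The libraries were RNA-seq of cells sorted from digested mouse lungs: Ly6Chi monocytes (4 control, 4 at 3 d and 4 at 14 d) and SigF+CD11b- alveolar macrophages (4 control, 3 at 3 d and 3 at 14 d).

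All 22 samples came from C57BL/6 mice that carry the I73T mutant of surfactant protein C (SP-C), a protein made by alveolar type 2 epithelial cells. Mice of the injury groups received tamoxifen by mouth, which removes a neomycin cassette and thereby raises expression of the mutant protein; cells were collected 3 d or 14 d later. Per the study's methods, mice were adult and homozygous, of both sexes, and the recombinase was Flp-O, knocked into the Rosa26 locus under control of the estrogen receptor. The controls carry the mutant allele too and are labelled untreated, while the methods describe oil-treated mutants together with tamoxifen-treated mutants that lack Flp-O, so the agent given to each control is not known here. In both cell types the sex of the mice differed with time: *Xist* counts were 552 to 4444 in control and 3 d samples and 1 to 32 at 14 d, while the summed count of 4 Y-linked genes was 0 to 3 and 433 to 3033, so 14 d and male sex cannot be told apart. Total counts were 15451460 to 28789639 per monocyte sample and 4610720 to 17074863 per macrophage sample, with the 14 d macrophages shallowest (4610720 to 6838893). The labelled cell types were checked against their markers: all 10 monocyte markers were higher in control monocytes and all 14 alveolar macrophage markers were higher in control macrophages.

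IL-1α and IL-1β are inflammatory cytokines that bind the same receptor, and the antagonist encoded by *Il1rn* competes with both for it. IL-1β and IL-18 are made as inactive precursors, and an inflammasome is the protein complex in which a sensor such as NLRP3 activates caspase-1 to cut them. Caspase-1 and the caspase encoded by mouse *Casp4* also cut gasdermin D, whose released fragment opens pores in the cell membrane through which mature cytokine leaves. In the lung, alveolar macrophages and recruited monocytes are well known sources of IL-1 family cytokines. Counts of mRNA as used here tell nothing about cutting or release of the proteins.

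The ligands lie on 2 chromosomes (positions from GENCODE M21, build GRCm38). *Il1a* (ENSMUSG00000027399; chr2:129299610-129309972, minus strand) and *Il1b* (ENSMUSG00000027398; chr2:129364570-129371139, minus strand) are neighbours. *Il1rn* (ENSMUSG00000026981; chr2:24336853-24351494, plus strand) lies on the same chromosome and *Il18* (ENSMUSG00000039217; chr9:50554827-50581840, plus strand) on chromosome 9. Receptor components are *Il1r2* (ENSMUSG00000026073; chr1:40074079-40125231, plus strand), which encodes a decoy receptor that binds IL-1 without signalling, and *Il1rap* (ENSMUSG00000022514; chr16:26581704-26730117, plus strand), the accessory chain the signalling receptor needs. The inflammasome members are *Nlrp3* (ENSMUSG00000032691; chr11:59541568-59566956, plus strand), *Gsdmd* (ENSMUSG00000022575; chr15:75862327-75867408, plus strand) and the adjacent *Casp1* (ENSMUSG00000025888; chr9:5298517-5307265, plus strand) and *Casp4* (ENSMUSG00000033538; chr9:5308828-5336783, plus strand). In the annotation, *Il1a* shares 222 of its 1974 exonic bases with a gene on the opposite strand (*Gm14023*), *Il1b* 25 of 1907 (*Il1bos*) and *Il1rap* 552 of 11360 (*Gm20319*). Whether the counting used strand is not given in the sources used here, so reads in those bases could not be assigned to one strand.

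Because *Il1a*, *Il1b* and *Il1rn* behaved unlike each other after injury, the 150 bases before the start of each are shown, read 5′ to 3′ on the gene's strand (RefSeq, GRCm38.p6). Capitals mark letters of 5 motifs searched: NF-κB (GGGA and CC with any 4 bases between them), PU.1 GAGGAAG, C/EBP TTNNGNAA and AP-1 TGANTCA on both strands, and the TATA box TATAAA on the gene's strand only. The *Il1rn* gene has 3 starts in the table and the most upstream one is shown. The bases before the others (chr2:24345141-24345290 and chr2:24345221-24345370) are not shown. Which start these cells used was not tested.

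Il1a (chr2:129309973-129310122, minus strand): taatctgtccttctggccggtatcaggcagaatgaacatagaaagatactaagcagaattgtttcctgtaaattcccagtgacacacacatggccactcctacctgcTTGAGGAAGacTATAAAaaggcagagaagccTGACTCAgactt
Il1b (chr2:129371140-129371289, minus strand): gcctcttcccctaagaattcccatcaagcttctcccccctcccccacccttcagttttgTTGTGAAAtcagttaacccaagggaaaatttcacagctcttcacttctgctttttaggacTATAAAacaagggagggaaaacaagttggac
Il1rn (chr2:24336710-24336859, plus strand): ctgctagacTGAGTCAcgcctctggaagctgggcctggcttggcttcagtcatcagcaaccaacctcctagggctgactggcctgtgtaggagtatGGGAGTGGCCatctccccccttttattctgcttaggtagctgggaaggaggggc

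Counted back from the start, the *Il1a* stretch held a C/EBP match at -43 to -36 that overlaps a PU.1 match at -41 to -35, a TATA match at -32 to -27 and an AP-1 match at -12 to -6. The *Il1b* stretch held a TATA match at -31 to -26 and a C/EBP match at -91 to -84. The *Il1rn* stretch held an AP-1 match at -141 to -135 and an NF-κB match at -54 to -45, and no TATA match. Before the other *Il1rn* starts only C/EBP matches were found, so the AP-1 and NF-κB matches belong to the upstream start alone. Within 250 bases before the start, the TATA letters were present in 7.59% of the 32851 promoters in the table, AP-1 in 6.75%, PU.1 in 10.6%, NF-κB in 17.6% and C/EBP in 36.8%. Of the members, 9 were in the table, with 13 promoters between them (*Gsdmd* was not). No motif was found before *Il18*, *Casp1* or *Il1r2*, which says only that these letters are not in those 250 bases. A match to letters describes the sequence and is not evidence that a factor binds.

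Levels are given as CPM, the share of a sample's reads that a gene takes after scaling by the trimmed mean of M-values (TMM), here per 1000000 reads, for replicates in the order of their label numbers, and differences as log2 fold change ± SE from edgeR's quasi-likelihood test. A gene was called where the Benjamini-Hochberg adjusted p over all genes (q) was below 0.05 and the fold above 1.5. Nothing in the labels says that samples of a group came from separate mice, so these tests measure the spread between samples, which could be partly technical. Of all genes tested in monocytes, groups did not overlap for 51.2% at 3 d and 13.7% at 14 d against control. From 3 d to 14 d the share was 51.4%. In macrophages the shares were 14% at 3 d, 70.8% at 14 d and 65.5% from 3 d to 14 d. Groups of a member without overlap are to be read against these shares. Scaling mattered in these data. Genes at 0.1 to 1 CPM in control monocytes had a median of 0.302 CPM there and 1.43 CPM at 3 d, and the equivalent genes of control macrophages went from 0.333 to 2.1 CPM at 14 d. Monocyte samples had 24775 to 30865 genes detected in controls, 40119 to 41134 at 3 d and 24829 to 32492 at 14 d. Macrophage samples had 21951 to 27616, 21499 to 26335 and 27699 to 30627. What lies behind these differences was not tested. All members but *Il1a* in monocytes and *Il1r2* in macrophages had a mean log2 CPM above 3. Under TMM the median log2 fold change of genes above that level was -0.47 in 3 d monocytes and -0.49 in 14 d macrophages. For these contrasts each call of a member is therefore given with the value when TMM was computed only on genes whose mean log2 CPM exceeded 5, called here abundant-gene scaling, and with the number of 5 scalings under which it was made.

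In control lungs, which carried the mutant allele too, the cell types used the family differently. The paper describes inflammation and remodelling of a relatively moderate degree with this allele before induction. Levels per kilobase here divide by all annotated exonic bases of a gene, and the order of genes depends on that length. Compared per kilobase of exon, control monocytes held most *Il1b* (457 ± 182 CPM per kb, SD, n = 4), followed by *Gsdmd* (133 ± 11.3), *Casp1* (88.7 ± 13.3) and *Il18* (68.7 ± 9.34). *Casp4* (14.6 ± 2.63), *Il1rn* (9.22 ± 2.03), *Il1r2* (8.86 ± 3.96) and *Nlrp3* (8.59 ± 2.16) formed a lower tier whose last 3 members lay within their spread of each other, and *Il1rap* (2.66 ± 0.741) and *Il1a* (2.05 ± 0.791) were lowest and also within their spread. Control macrophages instead held most *Il18* (287 ± 12.8 CPM per kb, n = 4), followed by *Casp1* (58.1 ± 4.92), *Il1rn* (40.9 ± 2.66) and *Gsdmd* (30.8 ± 2.48). *Il1b* had no firm place in this order (52.5 ± 53.0): control replicate 2 was at 131 CPM per kb and the other 3 at 36.0, 19.1 and 23.7, below every *Il1rn* sample (39.0 to 44.8). *Il1a* (24.8 ± 9.60) and *Nlrp3* (21.6 ± 3.00) overlapped, then came *Casp4* (6.56 ± 1.53) and *Il1rap* (3.31 ± 0.678), and *Il1r2* was nearly absent (0.374 ± 0.273).

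Between control monocytes and control macrophages 9 of the 10 members were called, against 44.2% of the 26692 genes tested (19.7% higher in monocytes, 24.5% higher in macrophages) and 62.3% of those whose mean log2 CPM exceeded 3. Monocytes were higher for *Il1b* by 3.53 ± 0.59 on the log2 scale (edgeR q = 7.22e-05), for *Il1r2* by 4.91 ± 0.56 (q = 3.55e-07) and for *Gsdmd* by 2.48 ± 0.17 (q = 3.57e-12). *Casp4* (1.54 ± 0.22, q = 1.28e-06) and *Casp1* (0.98 ± 0.18, q = 4.37e-05) were also higher in monocytes. Macrophages were higher for *Il1a* (-3.20 ± 0.53 as monocyte minus macrophage, q = 5.04e-05), *Il1rn* (-1.78 ± 0.32, q = 9.22e-05), *Il18* (-1.69 ± 0.20, q = 6.53e-08) and *Nlrp3* (-0.97 ± 0.30, q = 0.01). *Il1rap* differed by 0.05 ± 0.25 (q = 0.886; 95% interval -0.46 to 0.56). The cell types were counted in separate tables that list different gene sets, so cell type and table cannot be told apart; *Casp1* and *Nlrp3* were called under 4 of 5 scalings and the other 7 under all 5.

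**Figure D1:**
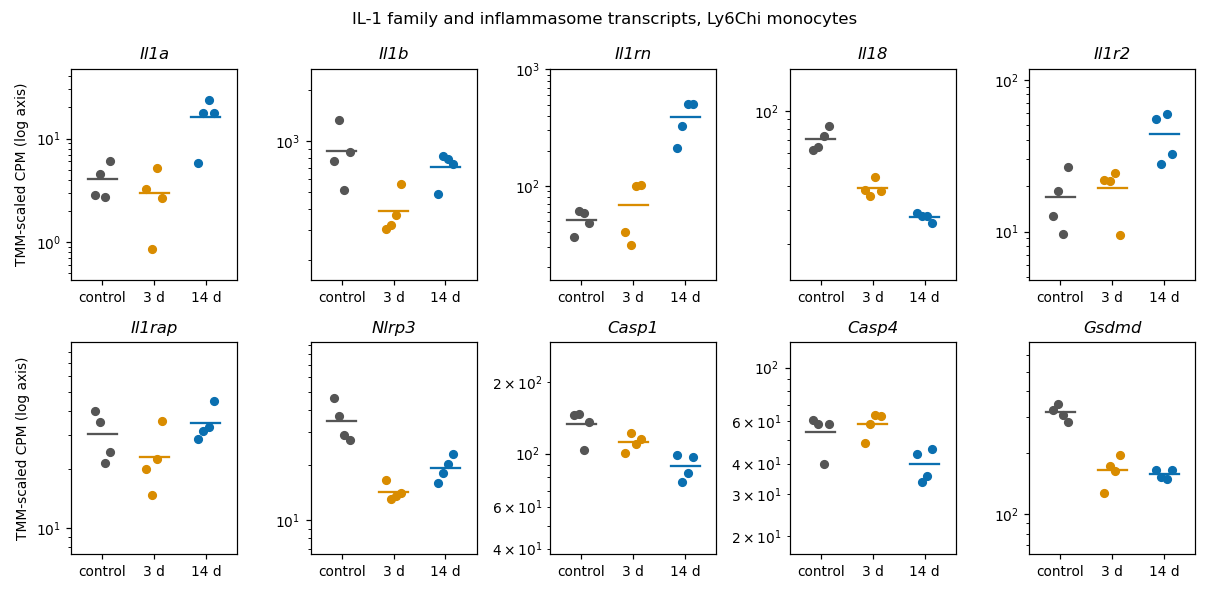
Level of each of the 10 genes in Ly6Chi monocytes, as TMM-scaled CPM on log axes that differ between panels, for 4 control, 4 3 d and 4 14 d samples. Each point is 1 sample and each line a group mean; the 14 d points of *Il1rn* (212 to 509 CPM) all lie above the control points (36.4 to 61.0), and those of *Il18* (25.6 to 28.8) all lie below (62.4 to 83.3).

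In monocytes 14 d after injury the ligands parted ways. The antagonist gene *Il1rn* and the cytokine gene *Il1a* rose, *Il18* fell, and *Il1b*, the most abundant of them, did not pass the test. In all, 6 of the 10 members were called (3 higher, 3 lower), against 8.56% of the 22353 genes tested (3.22% higher, 5.34% lower) and 13.7% of those whose mean log2 CPM exceeded 3 (4.26% higher, 9.44% lower). All 6 calls were made under 5 of 5 scalings.

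*Il1rn* was at 36.4, 61.0, 58.5 and 48.3 CPM in the control monocytes and at 212, 327, 509 and 508 CPM at 14 d. Every 14 d sample was above every control, and the log2 fold change was 2.93 ± 0.41 (edgeR q = 0.000539). At 3 d the 4 samples read 40.3, 31.0, 101 and 102 CPM, so that replicates 3 and 4 lay above all controls and replicates 1 and 2 among or below them (0.43 ± 0.38, q = 0.361).

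*Il1a* was a low transcript in control monocytes, at 2.86, 4.57, 2.73 and 6.02 CPM. At 14 d it read 5.84, 17.8, 23.7 and 17.7 CPM, which is a rise of 2.01 ± 0.49 (q = 0.0183). Replicate 1 at 14 d fell within the control range and the other 3 lay above it. The call was lost without control replicate 1 (log2 fold change 1.87, q = 0.0596), without control replicate 3 (1.86, q = 0.0574) and without 14 d replicate 3 (1.75, q = 0.0678). At 3 d *Il1a* was at 3.25, 0.853, 5.16 and 2.68 CPM (-0.44 ± 0.49, q = 0.455).

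*Il1b* was at 765, 1344, 514 and 865 CPM in control monocytes. At 3 d it was at 303, 320, 368 and 559 CPM, with only replicate 4 reaching into the control range, and was called lower (-1.17 ± 0.27, q = 0.0035). With abundant-gene scaling the difference was -0.64 (q = 0.0653) and the call was made under 4 of 5 scalings. At 14 d *Il1b* was at 492, 820, 783 and 738 CPM, with replicate 1 just below the lowest control and the other 3 within the control range (-0.30 ± 0.27, q = 0.561; 95% interval -0.88 to 0.28).

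*Il18* gave the tightest groups of the ligands. Control monocytes read 62.4, 64.2, 73.4 and 83.3 CPM, 3 d monocytes 38.2, 35.7, 45.0 and 37.7, and 14 d monocytes 28.8, 27.8, 27.9 and 25.6. None of the 3 groups overlapped. The fall at 14 d was -1.36 ± 0.14 (q = 4.66e-05) and was called in 12 of 12 fits that each left out 1 sample. The 3 d difference was -0.85 ± 0.14 (q = 0.000723) under TMM and -0.33 (q = 0.0836) with abundant-gene scaling, and was called under 2 of 5 scalings.

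Of the receptor components, the decoy receptor *Il1r2* rose in 14 d monocytes and *Il1rap* did not pass the test. *Il1r2* was at 12.7, 18.5, 9.65 and 26.8 CPM in controls and at 55.6, 27.7, 59.3 and 32.7 CPM at 14 d, without overlap (1.37 ± 0.36, q = 0.0266). The lowest 14 d sample was close to the highest control. The call did not survive leaving out control replicate 1 (1.258, q = 0.0831), control replicate 2 (1.42, q = 0.0627), control replicate 3 (1.18, q = 0.0694), 14 d replicate 1 (1.24, q = 0.0694) or 14 d replicate 3 (1.18, q = 0.102). *Il1rap* was at 21.7 to 39.6 CPM in controls, 14.7 to 35.5 at 3 d and 28.6 to 44.7 at 14 d, with overlap between all groups (14 d 0.19 ± 0.26, q = 0.725). *Il1r2* at 3 d (9.55 to 24.3 CPM) was also inside the control range (0.19 ± 0.35, q = 0.664).

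Under TMM, the inflammasome members called against control in monocytes were all lower. The sensor *Nlrp3* was at 46.3, 37.0, 28.9 and 27.2 CPM in control monocytes, 16.6, 13.1, 13.5 and 14.0 at 3 d and 15.9, 18.1, 20.2 and 22.9 at 14 d. Both injury groups lay wholly below the controls. The 3 d fall was -1.28 ± 0.20 (q = 0.000553), still called with abundant-gene scaling (-0.76, q = 0.00395) and under 5 of 5 scalings. The 14 d fall was -0.85 ± 0.19 (q = 0.0117) and was lost only without 14 d replicate 2 (-0.81, q = 0.0538).

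*Gsdmd*, the pore-forming member, was at 323, 347, 307 and 283 CPM in control monocytes and at 163, 153, 148 and 164 CPM at 14 d. The groups were far apart relative to their spread (-1.01 ± 0.14, q = 0.000364). At 3 d it was at 127, 173, 162 and 195 CPM (-0.94 ± 0.14, q = 0.000486), and with abundant-gene scaling at -0.41 (q = 0.0229), short of the fold limit, so that it was called under 2 of 5 scalings. *Casp1*, which encodes the protease that cuts the IL-1β precursor, was at 104 to 146 CPM in controls and 75.9 to 98.7 at 14 d. Its groups did not overlap and its difference (-0.58 ± 0.14, q = 0.0202) stopped just short of the fold limit. It passed that limit without control replicate 3 (-0.68, q = 0.00871), without any one of the 3 d replicates 1 to 3 (-0.59, q = 0.0401 to 0.0412), and without 14 d replicate 1 (-0.63, q = 0.0323) or 4 (-0.66, q = 0.0344). *Casp4* was at 39.8 to 60.7 CPM in controls and 33.7 to 45.9 at 14 d (-0.45 ± 0.17, q = 0.126).

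At 3 d the monocytes gave 4 calls in all, *Il1b*, *Il18*, *Nlrp3* and *Gsdmd*, each of them lower, against a background of 51.2% of genes called and 14.4% called lower. Among the 8081 genes that exceeded a mean log2 CPM of 3, 35.2% were called and 33.6% were called lower, so that 4 of 10 is near the share of genes of like abundance. *Casp4* was called higher at 3 d with abundant-gene scaling (0.63, q = 0.00646), under 2 of 5 scalings in all, and not with TMM (0.10 ± 0.17, q = 0.619). *Casp1* at 3 d was at -0.25 with TMM (q = 0.155) and 0.28 with abundant-gene scaling (q = 0.121). Between 3 d and 14 d, 4 members rose, against 46.5% of genes called and 12% called higher (29.9% and 27% of those whose mean log2 CPM exceeded 3, so that the count is near that of genes of like abundance): *Il1rn* by 2.51 ± 0.40 (q = 0.00113), *Il1a* by 2.45 ± 0.50 (q = 0.00255), *Il1r2* by 1.18 ± 0.36 (q = 0.0152) and *Il1b* by 0.87 ± 0.27 (q = 0.0174). Those of *Il1rn* and *Il1a* were made under 5 of 5 scalings, that of *Il1r2* under 2 and that of *Il1b* under 1; *Il1b* was also not called without 3 d replicate 1 (0.70, q = 0.0693), 3 d replicate 2 (0.73, q = 0.0653) or 3 d replicate 3 (0.76, q = 0.0662). *Il18* (-0.51 ± 0.14, q = 0.00997) and *Casp4* (-0.56 ± 0.17, q = 0.0162) missed the fold limit under TMM and were called lower under the other 4 scalings. Without 3 d replicate 4, *Il1rap* was called lower at 3 d (-0.67, q = 0.0356) and higher from 3 d to 14 d (0.86, q = 0.0163). With all samples it was called neither way with the filter on low counts used here, and both ways with no filter (-0.64, q = 0.0362; 0.74, q = 0.0217).

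Markers of other cells were read beside these differences. Per the study's methods, the sort of monocytes left out alveolar macrophages, eosinophils, Ly6G+ neutrophils and CD3+ lymphocytes. The 13 lymphocyte markers, which here include natural killer cell genes, summed to 373 to 1516 CPM in control monocytes, 33.1 to 292 at 3 d and 25.9 to 55.3 at 14 d, with 10 to 13 of them above 1 CPM in controls and 8 to 12 after injury; 9 were called lower at 3 d and 7 at 14 d. The 16 neutrophil markers summed to 690 to 909 CPM in controls, 493.4 to 1656 at 3 d and 1035 to 1901 at 14 d. Dendritic cell markers, 9 in number, summed to 278 to 419 CPM in controls, 51.4 to 236 at 3 d and, at 14 d, 140 to 235. The list of 14 alveolar macrophage markers summed to 8706 to 15520 CPM in controls, 4443 to 9182 at 3 d, beside the 3 d falls of *Il18* and *Nlrp3*, and 15980 to 21610 at 14 d, and 8 of them were called lower at 3 d and 3 lower and 1 higher at 14 d. Most of that sum is *Chil3*, which was at 7022 to 14900 CPM in control monocytes, 4235 to 8781 at 3 d and 15430 to 20580 at 14 d, whereas *Siglecf* was at 3.55 to 29.2, 0.800 to 6.56 and 2.13 to 5.03 CPM and *Marco* at 3.23 to 64.1, 3.11 to 9.89 and 8.72 to 39.2 CPM. The part of other cells in the monocyte results was not tested, and in sorted bulk samples fewer cells of a type and less RNA per cell cannot be told apart.

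**Figure D2:**
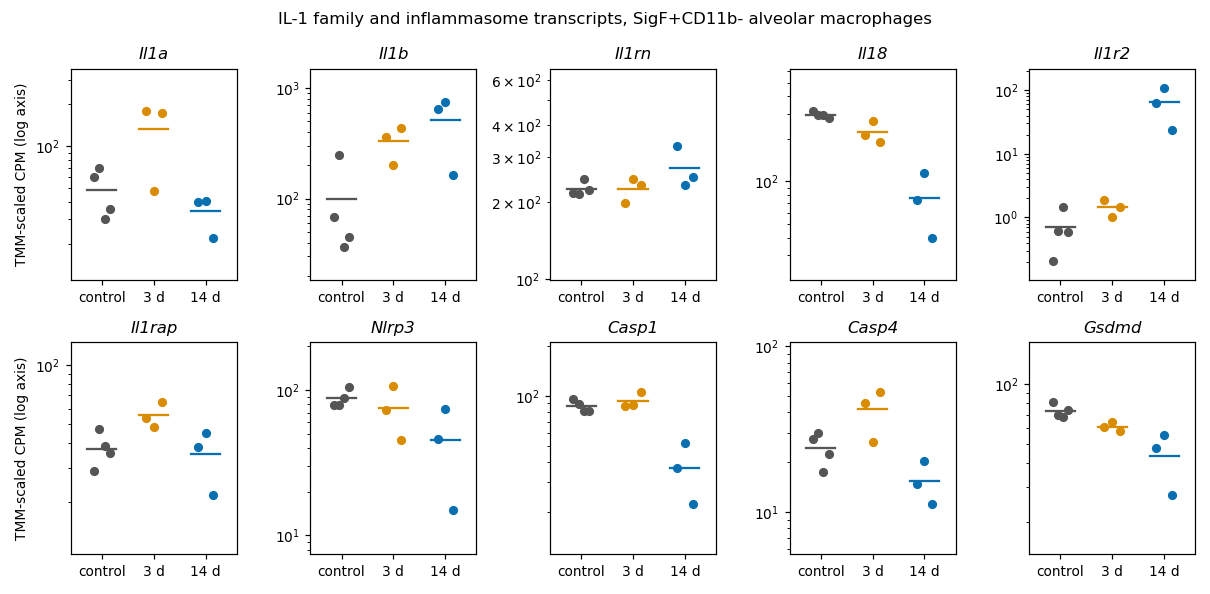
Level of each of the 10 genes in SigF+CD11b- alveolar macrophages, as TMM-scaled CPM on log axes that differ between panels, for 4 control, 3 3 d and 3 14 d samples. Each point is 1 sample and each line a group mean; *Il1r2* rises from 0.205 to 1.44 CPM in controls to 23.5 to 109 CPM at 14 d, and *Il18* falls from 282 to 314 CPM to 40.1 to 115 CPM.

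In alveolar macrophages 14 d after injury the decoy receptor gene went from nearly silent to well expressed, *Il1b* was higher on average with wide spread, and *Il18* and *Casp1* fell. Of the 10 members 6 were called (2 higher, 4 lower), in a contrast where 62.3% of 20944 genes were called (39.4% higher, 22.9% lower). Among the 9649 genes that exceeded a mean log2 CPM of 3, 51.3% were called and 43% were called lower. The number of members called is thus close to the background, and their sizes and sample values carry more than the count.

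*Il1r2* was at 0.205, 0.608, 1.44 and 0.598 CPM in control macrophages, from 3 to 22 reads per sample. At 3 d it was at 1.86, 1.01 and 1.46 CPM, overlapping the controls (1.00 ± 0.74, q = 0.596). At 14 d it reached 63.7, 109 and 23.5 CPM, from 139 to 868 reads, far above every control and 3 d sample. The log2 fold change was 6.49 ± 0.61 (q = 1.58e-05), and 7.003 with abundant-gene scaling, called under 5 of 5 scalings and in 10 of 10 fits that left out 1 sample (5.88 to 7.11).

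*Il1b* in macrophages varied widely within groups. Controls were at 68.6, 250, 36.4 and 45.2 CPM, with replicate 2 standing far above the others. The 3 d samples were at 363, 200 and 432 CPM and the 14 d samples at 643, 754 and 165 CPM, the last of these below control replicate 2. The 14 d difference was 2.38 ± 0.81 (q = 0.0313), and 2.88 with abundant-gene scaling (q = 0.0152; 5 of 5 scalings), and rested on nearly every sample. It remained a call without control replicate 2 and without 14 d replicate 3, and in the other 8 fits that left out 1 sample it was not: without control replicate 1, 3 or 4 it was 2.24 (q = 0.0711), 2.11 (q = 0.0628) and 2.07 (q = 0.075), without 3 d replicate 1, 2 or 3 it was 2.24 (q = 0.0578), 2.19 (q = 0.0552) and 2.23 (q = 0.0556), and without 14 d replicate 1 or 2 it was 2.17 (q = 0.0808) and 1.99 (q = 0.0969). The 3 d difference was 1.73 ± 0.80 (q = 0.397).

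*Il1a* followed another course from *Il1b*. Control macrophages read 60.0, 69.6, 30.3 and 35.6 CPM, the 3 d samples 181, 47.9 and 174, and the 14 d samples 39.8, 40.8 and 21.98. Replicates 1 and 3 at 3 d lay above all other macrophage samples while replicate 2 fell among the controls. The 3 d difference was 1.46 ± 0.49 (q = 0.219) and was called without 3 d replicate 2 (1.90, q = 0.0158). From 3 d to 14 d *Il1a* fell (-1.97 ± 0.55, q = 0.0135), without overlap, a call lost without 14 d replicate 3 (-1.79, q = 0.0565), and the 14 d level did not differ from control beyond its error (-0.51 ± 0.51, q = 0.396).

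The antagonist gene *Il1rn* was at 218, 216, 248 and 223 CPM in control macrophages and at 199, 246 and 234 CPM at 3 d (0.00 ± 0.15, q = 1; 95% interval -0.31 to 0.31). At 14 d it was at 333, 233 and 251 CPM, where replicate 1 stood above the rest. The difference was 0.27 ± 0.15 (q = 0.111) with TMM and 0.83 (q = 0.000167) with abundant-gene scaling, and 3 of 5 scalings called it.

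*Il18*, the most abundant member per kilobase in control macrophages, was at 314, 295, 294 and 282 CPM there. It was at 213, 269 and 190 CPM at 3 d (-0.40 ± 0.25, q = 0.502), below every control, and at 74.5, 115 and 40.1 CPM at 14 d. The fall at 14 d was -1.95 ± 0.27 (q = 4.33e-05), and -1.43 (q = 0.000119) with abundant-gene scaling. It was called under 5 of 5 scalings and in 10 of 10 fits that left out 1 sample.

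*Casp1* was at 96.3, 89.6, 80.8 and 81.3 CPM in control macrophages, at 86.3, 88.1 and 105 CPM at 3 d and at 36.7, 51.7 and 22.1 CPM at 14 d. The 14 d samples lay below all others (-1.23 ± 0.21, q = 0.000151; -0.70 with abundant-gene scaling, q = 0.00419; 5 of 5 scalings). At 14 d 70.8% of all genes tested had no overlap with control. *Casp4* was at 17.4 to 30.2 CPM in controls. The 3 d samples were at 45.8, 26.6 and 52.9 CPM (0.78 ± 0.25, q = 0.146) and the 14 d samples at 14.7, 20.4 and 11.2 (-0.65 ± 0.26, q = 0.0391). The 3 d difference was called without 3 d replicate 2 (1.06, q = 0.0061). The 14 d call was made under 1 of 5 scalings (-0.12 with abundant-gene scaling, q = 0.717) and was lost without control replicate 1 (-0.58, q = 0.0886), control replicate 2 (-0.52, q = 0.105), 14 d replicate 1 (-0.65, q = 0.0853) or 14 d replicate 3 (-0.52, q = 0.135).

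*Gsdmd* in macrophages was at 68.0 to 81.1 CPM in controls, 57.8 to 64.0 at 3 d and 47.4, 55.1 and 27.6 CPM at 14 d. The 14 d difference was -0.75 ± 0.18 (q = 0.00216) with TMM and -0.22 (q = 0.252) with abundant-gene scaling, was called under 2 of 5 scalings, and without 14 d replicate 3 missed the fold limit (-0.57, q = 0.00207). *Nlrp3* was at 78.8 to 105 CPM in controls, 72.7, 106 and 45.4 at 3 d and 46.4, 73.8 and 14.9 at 14 d, all 14 d samples below all controls (-0.95 ± 0.47, q = 0.0996). It was called without 14 d replicate 2 (-1.53, q = 0.0229). *Il1rap*, the accessory chain, was at 28.8 to 47.3 CPM in controls, 48.3 to 65.1 at 3 d (0.57 ± 0.21, q = 0.223) and 21.8 to 45.1 at 14 d (-0.09 ± 0.22, q = 0.718).

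In 3 d macrophages 0 of 10 members were called by edgeR, against 1.27% of genes (1.39% of those whose mean log2 CPM exceeded 3), and 0 by DESeq2. The unadjusted edgeR p was below 0.05 for 3 members, *Casp4*, *Il1a* and *Il1rap*, each higher at 3 d. Without 3 d replicate 2 the count was 2 members (*Il1a* and *Casp4*), and 5.77% of genes were called. Between 3 d and 14 d 6 members were called, against 56.4% of genes (36.3% higher, 20% lower) and 45.1% of those whose mean log2 CPM exceeded 3 (6.95% higher, 38.2% lower), so that the count lower is near that of genes of like abundance. *Il1r2* rose by 5.49 ± 0.64 (q = 0.000138), while *Casp4* (-1.43 ± 0.28, q = 0.00079), *Casp1* (-1.33 ± 0.22, q = 0.000248), *Il18* (-1.55 ± 0.27, q = 0.000521), *Il1a* and *Il1rap* (-0.66 ± 0.23, q = 0.0224) fell. *Gsdmd* missed the fold limit (-0.48 ± 0.19, q = 0.0405) and was called without any one of the 3 d replicates 1 to 3 or 14 d replicates 1 and 2 (-0.59 to -0.72). The call of *Il1rap* was made under 1 of 5 scalings and was lost without 14 d replicate 3 (-0.47, q = 0.0457).

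**Figure D3:**
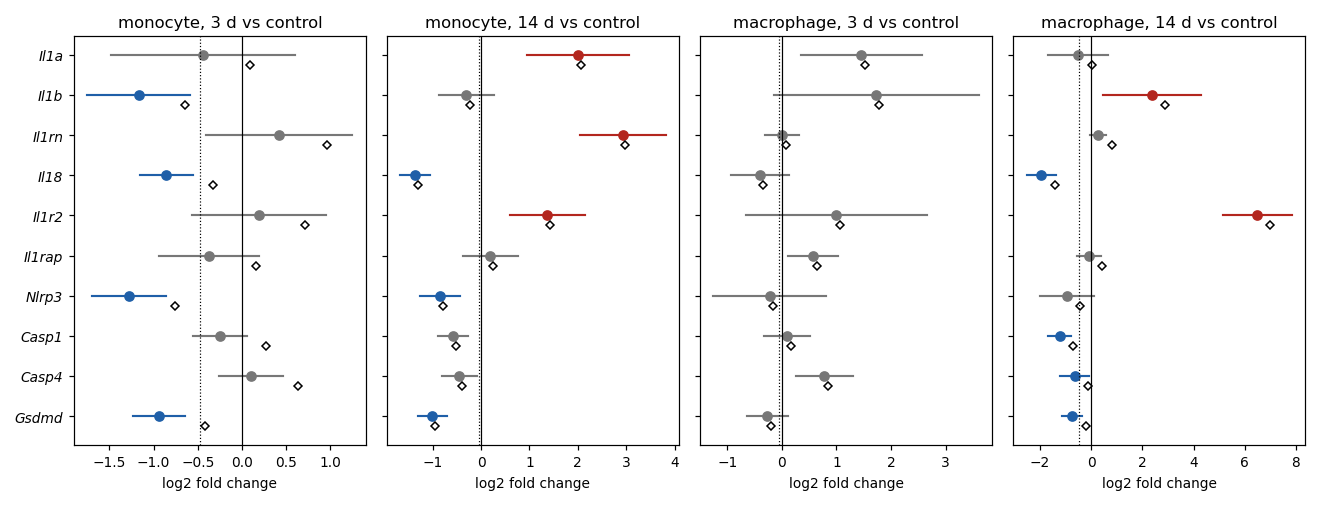
Log2 fold change of each member against control in the 4 contrasts, with 95% intervals (lines) derived from edgeR's F values under TMM. Filled points are red where called higher, blue where called lower and grey where not called; open diamonds are the values with abundant-gene scaling, the dotted line is the median of genes whose mean log2 CPM exceeded 3, and the diamonds of 3 d monocytes and 14 d macrophages sit to the right of the points.

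Summed markers of granulocytes and of monocytes were higher in the 14 d macrophages than in controls. The 16 neutrophil markers summed to 136 to 244 CPM in controls, 187 to 261 at 3 d and 1601, 1838 and 492 CPM in 14 d replicates 1 to 3, with 6 to 9 of them above 1 CPM in controls and 14 at 14 d. *S100a8*, which encodes an abundant neutrophil calcium-binding protein, was at 4.85 to 7.68 CPM in controls and at 514, 663 and 105 CPM at 14 d. Replicate 2 was thus highest and replicate 3 lowest. All members but *Il1rn* had this order, *Il1r2* and *Il1b* as well as *Il18* and *Casp1*, which fell. Total counts of replicates 1 to 3 had the same order (5618291, 6838893 and 4610720). The TMM factors had the reverse order (1.244, 1.173 and 1.292). In these 3 samples marker sum, depth and scaling cannot be told apart. *Ly6g*, a defining neutrophil marker, stayed at 0 to 1.30 CPM at 14 d, and *Retnlg* was at 78.2, 30.1 and 127 CPM. The 8 eosinophil and basophil markers summed to 1.79 to 5.27 CPM in controls and 42.3 to 122 at 14 d. The 10 monocyte markers summed to 345 to 414 CPM in controls and 538 to 733 at 14 d. Of these 10, 5 were called higher and 0 lower at 14 d, against 39.4% of all genes called higher. The part of granulocytes or monocytes in the *Il1r2* and *Il1b* results was not tested. The 14 alveolar macrophage markers summed to 32080 to 36780 CPM in controls and 23670 to 29980 at 14 d, and 11 of the 14 were called lower, beside the falls of *Il18* and *Casp1*; their part in these was also not tested.

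**Figure D4:**
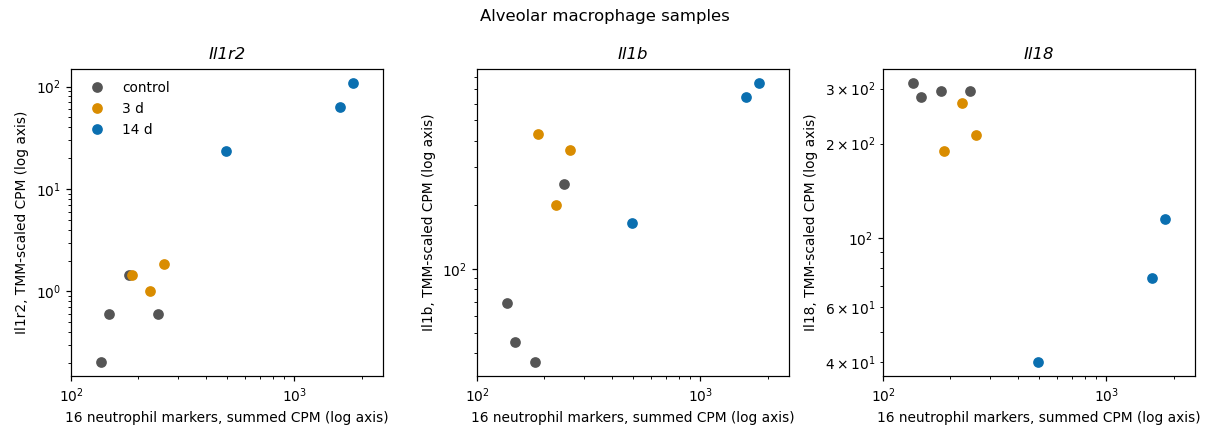
*Il1r2*, *Il1b* and *Il18* in the 10 macrophage samples (TMM-scaled CPM, vertical log axes) against the summed CPM of 16 neutrophil markers (horizontal log axes). Each point is 1 sample. The 3 14 d samples lie at 492 to 1838 CPM of marker sum and the other 7 at 136 to 261. At 14 d all 3 genes are lowest in the sample with the lowest sum, which also has the lowest total count (4610720).

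Whether a gene responded differently in the 2 cell types was tested as the difference of the changes, monocyte minus macrophage, in 1 fit over all 22 samples. At 14 d 6 members were called, against 36.8% of genes and 56.3% of those whose mean log2 CPM exceeded 3, so that the count is near that of genes of like abundance. *Il1rn* (3.00 ± 0.48, q = 0.000102) and *Il1a* (2.84 ± 0.75, q = 0.0069) changed more positively in monocytes. *Il1r2* (-4.76 ± 0.72, q = 7.24e-05) and *Il1b* (-2.36 ± 0.79, q = 0.0277) changed more positively in macrophages. These 4 were called under 5 of 5 scalings, and that of *Il1b* was lost without monocyte control replicate 2 (-2.07, q = 0.0583), 14 d monocyte replicate 4 (-2.42, q = 0.0538), macrophage control replicate 4 (-2.13, q = 0.0531) or 14 d macrophage replicate 1 (-2.15, q = 0.065) or 2 (-2.02, q = 0.0738). *Casp1* (1.00 ± 0.26, q = 0.00477) and *Il18* (0.94 ± 0.29, q = 0.0128), which fell more in macrophages, were called under TMM alone of the 5 scalings; with abundant-gene scaling they were at 0.24 (q = 0.476) and 0.18 (q = 0.636). *Gsdmd* was at 0.10 with TMM (q = 0.768), and with abundant-gene scaling alone of the 5 it was called the other way (-0.67, q = 0.0277).

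At 3 d 1 member was called for a difference between the cell types, against 18.7% of genes and 10.3% of those whose mean log2 CPM exceeded 3. *Il1b* went down in monocytes and was higher on average in macrophages (-2.76 ± 0.79, q = 0.0251), a call made under 5 of 5 scalings. It was lost without macrophage control replicate 1 (-2.62, q = 0.0537) and without 3 d macrophage replicate 1 (-2.69, q = 0.0673) or 3 (-2.70, q = 0.0698). *Il1a* followed with -1.75 ± 0.74 (q = 0.0973) and was called without 3 d macrophage replicate 2 (-2.21, q = 0.0371).

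Ratios of counts between genes within a sample do not depend on scaling, so the balance of antagonist and agonist was also compared that way, by exact two-sided permutation tests over samples, in 12 comparisons with Benjamini-Hochberg adjustment. Control monocytes held 0.0476, 0.0454, 0.114 and 0.0559 *Il1rn* reads per *Il1b* read, 3 d monocytes 0.133, 0.0969, 0.274 and 0.183 and 14 d monocytes 0.431, 0.399, 0.650 and 0.689. The 14 d ratio was 8.65-fold the control ratio without overlap (exact permutation p = 0.0286, adjusted 0.0857), which is the smallest p that 4 against 4 samples can give. It was 3.30-fold the 3 d ratio (exact permutation p = 0.0286, adjusted 0.0857), and the 3 d ratio was 2.62-fold the control ratio (exact permutation p = 0.0571, adjusted 0.114). In every monocyte sample *Il1b* reads outnumbered *Il1rn* reads.

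In macrophages the ratio lay lower after injury in most samples. Controls held 3.18, 0.862, 6.79 and 4.92 *Il1rn* reads per *Il1b* read, 3 d samples 0.547, 1.23 and 0.541 and 14 d samples 0.517, 0.309 and 1.52. Antagonist reads outnumbered *Il1b* reads in 3 of 4 controls and in 1 of 3 samples at each time after injury. *Il1rn* has 5535 exonic bases and *Il1b* 1907, so a read ratio of 1 does not mean equal numbers of transcripts. Per kilobase of exon, *Il1rn* lay above *Il1b* in control replicates 1, 3 and 4 and below it in every injured sample. The values were 35.9 to 44.4 against 105 to 227 CPM per kb at 3 d, and 42.1 to 60.1 against 86.5 to 395 at 14 d. That length counts every annotated exonic base, and which transcripts these cells used was not tested. With a shorter *Il1rn* transcript the order could turn in the injured samples with read ratios of 1.23 and 1.52. Neither time differed from control beyond the spread (3 d 0.231-fold, exact permutation p = 0.0857, adjusted 0.129; 14 d 0.202-fold, exact permutation p = 0.0857, adjusted 0.129), control replicate 2 lying among the injured samples.

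The balance of the agonists at 14 d lay on opposite sides of control in the cell types. Control macrophages held 0.875, 0.278, 0.831 and 0.787 *Il1a* reads per *Il1b* read, 3 d macrophages 0.498, 0.240 and 0.402 and 14 d macrophages 0.0619, 0.0543 and 0.134. The 14 d ratio was 0.121-fold the control ratio without overlap (exact permutation p = 0.0286, adjusted 0.0857). In monocytes it went from 0.00376, 0.00342, 0.00536 and 0.00699 in controls to 0.0119, 0.0217, 0.0303 and 0.0241 at 14 d, also without overlap (4.45-fold, exact permutation p = 0.0286, adjusted 0.0857). For the 12 comparisons no adjusted p was below 0.05, and between 3 d and 14 d macrophages 3 against 3 samples cannot give a p below 0.1. The difference in change between cell types was not tested for these ratios.

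**Figure D5:**
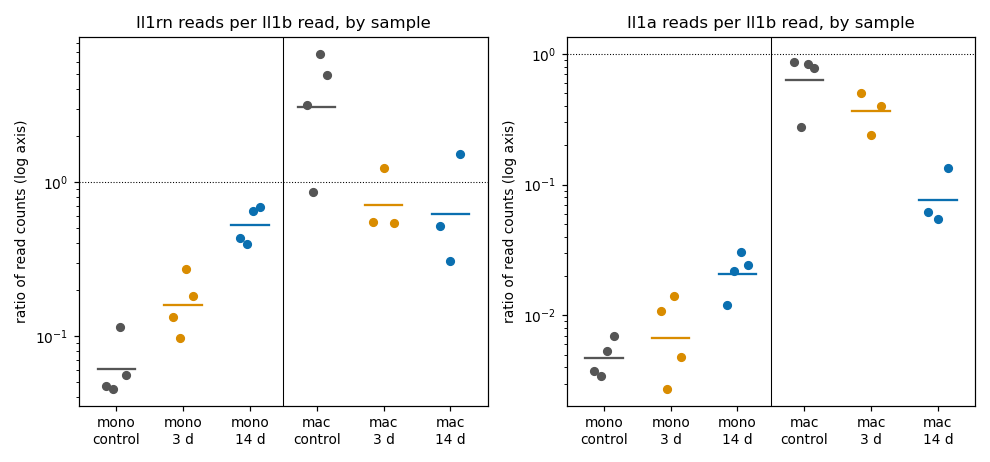
Number of *Il1rn* reads (left) and *Il1a* reads (right) per *Il1b* read in each of the 22 samples, on log axes and not corrected for gene length. Each point is 1 sample, each line the geometric mean of a group and the dotted line a ratio of 1; the left panel climbs from 0.0454 to 0.114 in control monocytes to 0.399 to 0.689 at 14 d, and the right panel drops from 0.278 to 0.875 in control macrophages to 0.0543 to 0.134 at 14 d.

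The rest of the pathway was followed with 4 further lists, which share no gene with the members and whose calls are given under TMM only. Among the other IL-1 family receptors, 8 were tested in monocytes, where 5 were higher and 2 lower at 3 d and 2 were higher and 2 lower at 14 d. Over all genes tested, 36.8% were called higher and 14.4% lower at 3 d, and 3.22% and 5.34% at 14 d. *Il1rl2*, the receptor for IL-36 cytokines, rose in monocytes at both times (3 d 0.94 ± 0.35, q = 0.0336; 14 d 2.71 ± 0.36, q = 0.000284). *Il18rap*, a chain of the IL-18 receptor, fell (3 d -1.91 ± 0.36, q = 0.00133; 14 d -1.21 ± 0.35, q = 0.0461). It is a gene that natural killer cells express as well, whose markers were lower in these samples, and their part was not tested. In macrophages, 2 of 6 receptors were higher at 3 d and 4 at 14 d, none lower. Over all genes tested in macrophages, 1.05% were called higher at 3 d and 39.4% at 14 d. *Il18rap* rose in macrophages at 3 d (2.11 ± 0.28, edgeR q = 0.00171) and 14 d (2.55 ± 0.29, q = 5.34e-06). The lymphocyte markers, natural killer cell genes among them, summed there to 163 to 410 CPM at 3 d and 80.1 to 142 at 14 d. In control macrophages they summed to 49.8 to 125 CPM, and the part of such cells was not tested. Of the 3 other ligands and binding proteins tested, 1 was higher in monocytes at 3 d and 0 at 14 d, and in macrophages 0 were higher at 3 d and 2 at 14 d, those called being transcripts with a mean log2 CPM below 1.

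Of the genes that carry the signal from the IL-1 receptor, 8 of 18 were lower in monocytes at 3 d and 1 at 14 d, and none were higher. Among genes whose mean log2 CPM exceeded 3, monocytes had 1.55% called higher and 33.6% lower at 3 d, and 4.26% and 9.44% at 14 d. Macrophages had 0.964% called higher at 3 d, and 8.32% higher and 43% lower at 14 d. The counts of this list and of the next are to be read against such shares. *Irak2*, which encodes a kinase-like adaptor of the receptor complex, was lower at both times (3 d -1.28 ± 0.20, q = 0.000648; 14 d -1.16 ± 0.20, q = 0.00194), and *Map3k7*, which encodes the kinase TAK1, at 3 d (-0.88 ± 0.28, q = 0.0154). In macrophages 1 of 18 was higher at 3 d, the inhibitor gene *Tnfaip3* (1.11 ± 0.19, q = 0.0104). At 14 d 3 were higher and 6 lower, led by *Nfkbiz* (1.24 ± 0.31, q = 0.00339), which encodes a nuclear IκB protein, and *Peli1* (-1.38 ± 0.24, q = 0.000249), which encodes a ubiquitin ligase.

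Of the other inflammasome and pyroptosis genes, 2 of 23 were higher and 8 lower in monocytes at 3 d, and 1 was higher and 4 lower at 14 d. The DNA sensor *Aim2* was lower at 14 d (-0.93 ± 0.18, q = 0.00391), as was *Naip5* (-0.98 ± 0.22, q = 0.0107), a sensor of bacterial proteins whose reads may be shared with its near-identical neighbours. At 3 d the largest were *Naip6* (-1.18 ± 0.24, q = 0.00167), with the same limit, and *Txnip* (-1.18 ± 0.22, q = 0.0013), which encodes thioredoxin-interacting protein. In macrophages 0 of 22 were called at 3 d. At 14 d 6 were higher and 12 lower; *Pstpip1*, which encodes a partner of pyrin, rose by 3.29 ± 0.30 (q = 1.61e-06) and *Ninj1*, which encodes the protein that ruptures the membrane of dying cells, by 2.24 ± 0.20 (q = 8.99e-07). The median log2 fold change of this list at 14 d in macrophages was -0.79, against 0.18 for all genes and -0.49 for genes whose mean log2 CPM exceeded 3, and that of the 10 members was -0.58.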

How the data were processed

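RNA-seq reads of sorted lung cells were counted by the authors, and the deposited tables hold raw read counts per Ensembl gene and sample, not normalized. The submitters' processing notes name STAR 2.7.2c and 2.7.3a, featureCounts 1.6.3, DESeq2 1.26.0 and 1.28.1 and the build GRCm38 (mm10), without saying which did what; strand setting and annotation release are not given in the sources used here. Per the study's methods, libraries were paired-end and made from poly(A)-enriched RNA. The monocyte table lists 55421 genes (6505 at 0 in every sample) and that of the macrophages lists 31134 (none at 0 throughout), of which 31116 are shared. Columns were assigned by the sample names in the labels.

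The members and all gene lists were chosen with earlier results of these data known. Symbols were matched through GENCODE M21. For each cell type, genes passing edgeR's filterByExpr were TMM-scaled and fitted over the 3 groups by edgeR 4.0.16 (quasi-likelihood, robust) in R 4.3.3, and p-values were adjusted across every tested gene by Benjamini-Hochberg. Calls needed a value below 0.05 after adjustment and a fold above 1.5. The 31116 shared genes of all 22 samples were fitted together for differences between the cell types. All 10 members are named; of each further list, up to 2 called genes with the largest fold and a mean log2 CPM above 3 are named per comparison with control. Ratios of counts used exact permutation tests on the log2 scale. Totals of 4610720 to 28789639 counts put 3 reads at 0.104 to 0.651 CPM. Reads carry no molecular identifiers, so this floor covers counting error only. Samples of a group were compared by a chi-square per gene, which found no library deposited in duplicate. Scripts were tested on simulated counts. Alternatives were 4 other scalings, DESeq2 1.42.0, 2 other filters on low counts, only the groups compared, dispersion not robust, the adjusted p alone, the replicate number as a block, and leaving out each sample.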

Additional observations from a re-analysis of the deposited data

Results flagged for a closer look

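Outlying samples were looked for in 48 groups of 4 values (the level of a member, or the log2 ratio of *Il1rn* or *Il1a* to *Il1b*), where chance flags about 1 group in 20, and 3 were found. *Casp4* was at 39.81 CPM in monocyte control replicate 3, below the other controls at 58.3 to 60.7 CPM. *Il1b* was at 250.2 CPM in macrophage control replicate 2, against 36.4 to 68.6 CPM in the other controls. In the same sample the log2 ratio of *Il1a* to *Il1b* was -1.845, against -0.35 to -0.19 in the others. All 3 lie in control groups, but the 3 d and 14 d macrophages, with 3 samples each, were not searched.

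The change with injury differed between the cell types, by the fit over all 22 samples, in 7 of 20 tests (log2, monocyte minus macrophage). At 3 d this was *Il1b* at -2.76 (edgeR q = 0.0251). At 14 d these were *Il1rn* at 3.0 (q = 0.000102), *Il1a* at 2.842 (q = 0.0069), *Casp1* at 1.003 (q = 0.00477), *Il18* at 0.9423 (q = 0.0128), *Il1b* at -2.361 (q = 0.0277) and *Il1r2* at -4.761 (q = 7.24e-05). Those of *Casp1* and *Il18* were called under 1 of 5 scalings, and the other 5 under all.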

How the results depend on the processing

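The number of members called in 3 d monocytes was 4 with TMM, 2 with upper quartile scaling, 2 with abundant-gene scaling (*Nlrp3*, and *Casp4* higher) and 1 with a mean log2 CPM above 1. For the difference between cell types at 3 d it was 1 in edgeR and 2 in DESeq2, and 0 to 2 when 1 sample was left out; in 3 d macrophages it was 0 to 2 when 1 sample was left out. Under all other settings the counts of members stayed within 1.5 times the main count. Directions turned for *Nlrp3* from 3 d to 14 d in monocytes (-0.003052 with upper quartile and -0.03645 with abundant-gene scaling), for *Il1rap* in 14 d macrophages (0.4409 with abundant-gene scaling) and for the cell type difference of *Gsdmd* at 14 d (-0.5613 with library size, -0.5846 with upper quartile, -0.671 with abundant-gene scaling and -0.4929 with a mean log2 CPM above 1). None of these 3 values was called under TMM, that of *Gsdmd* was called with abundant-gene scaling (q = 0.0277), and the cause was not tested. Of 90 member values, 15 more changed sign under some setting, with 95% intervals that held 0 both ways; with abundant-gene scaling these were *Casp1* (0.276), *Il1a* (0.0881) and *Il1rap* (0.156) in 3 d monocytes, *Il1rn* (0.068) in 3 d and *Il1a* (0.0184) in 14 d macrophages, and the cell type differences of *Casp1* (0.150) and *Il18* (0.041) at 3 d, *Casp4* (-0.218), *Il1rap* (-0.138) and *Nlrp3* (-0.303) at 14 d and *Il1rap* (-0.283) in controls.

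Over all genes, keeping only genes whose mean log2 CPM exceeded 1, with TMM taken anew on them, called 1468 in place of 11438 in 3 d monocytes and 5018 in place of 13051 in 14 d macrophages, and in 3 d macrophages DESeq2 called 763 in place of 267. The same filter called 1557 in place of 10395 from 3 d to 14 d in monocytes and 4236 in place of 11806 in macrophages, and with no filter 19592 and 16664 were called in monocytes for 3 d against control and 14 d against 3 d. It called 1211 in place of 4995 and 3736 in place of 9829 for the cell type differences at 3 d and 14 d, and 7586 in place of 11787 in controls. Of genes called, 71.8% were higher in 3 d monocytes with TMM and 95.8% with abundant-gene scaling. The same shares were 63.3% and 89% in 14 d macrophages, 25.8% and 4.32% from 3 d to 14 d in monocytes, 64.5% and 89.5% from 3 d to 14 d in macrophages, 81.3% and 93.2% for the cell type difference at 3 d, 54.1% and 14% for that at 14 d, and 44.5% and 32.1% in controls; in 14 d monocytes they were 37.6% and 43.4%, and 48.6% with library size scaling.

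For ratios, the difference of medians no longer reached 0.05 (exact permutation p = 0.0571) for *Il1rn* to *Il1b* in monocytes at 14 d against control (3.359) and against 3 d (1.762), and for *Il1a* to *Il1b* at 14 d in monocytes (2.347) and macrophages (-3.708). Leaving out 1 sample gave, on the log2 scale, 1.128 to 1.69 for *Il1rn* to *Il1b* in 3 d monocytes (past the limit without control replicate 3), 1.485 to 1.985 for 14 d against 3 d monocytes and -0.8366 to 0.3133 for 14 d against 3 d macrophages, which turned direction without 14 d replicate 2 (0.3133) or 3 d replicate 2 (0.1975). For *Il1a* to *Il1b* it gave 1.207 to 1.996 for 14 d against 3 d monocytes (past the limit without 3 d replicate 3) and -3.447 to -2.797 for 14 d macrophages, where an exact permutation test of the smaller groups cannot reach 0.05.

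The replicate numbers were not taken as pairs: deviations of same-numbered samples correlated at 0.0892 to 0.521 between control and 14 d monocytes, where 6 of 8 samples correlated best with their own number, and at -0.17 to 0.228 in the other 5 comparisons of groups. The macrophage column names skip numbers among the injured samples. Replicate numbers in the labels of injured macrophages may therefore differ from those of the original series, which the block cannot take into account. With the replicate block, *Il1r2* in 14 d monocytes (q = 0.0934), *Il1b* (q = 0.0925) and *Casp4* (q = 0.0618) in 14 d macrophages, *Il1a* from 3 d to 14 d in macrophages (q = 0.0576), *Nlrp3* between the controls (q = 0.0654) and the 14 d cell type difference of *Il1b* (q = 0.0616) were not called in edgeR, and *Nlrp3* in 14 d macrophages was (q = 0.0494). The block called 133 genes in place of 267 in 3 d macrophages, and 4 paired exact permutation tests of ratios could not reach 0.05 (3.113, 1.724, 2.153 and -2.939, in the order of the medians above).

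With 3 or 4 samples a group and 14 d macrophage totals of at most 6838893, small changes of low transcripts could not be seen.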

Other observations

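Of the lists beside the 10 members, 3 genes are given here with their sample values; they were chosen after their values were seen. *Il1r1*, which encodes the signalling receptor of IL-1, was a low transcript in control monocytes, at 1.24, 0.699, 0.362 and 0.773 CPM, and was at 2.504, 2.71, 4.63 and 4.51 CPM at 14 d. Every 14 d sample lay above every control (log2 fold change 2.21 ± 0.41, edgeR q = 0.00287), and the values rest on 9 to 30 reads per control sample. In macrophages *Il1r1* was at 2.59 to 3.63 CPM in controls and 4.56 to 7.06 at 14 d (0.85 ± 0.37, q = 0.049), and the change was more positive in monocytes by 1.71 ± 0.56 (q = 0.0206).

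*Il1rl1*, which encodes the receptor for the IL-1 family cytokine IL-33, was at 0.685, 0.456, 1.25 and 0.730 CPM in control macrophages, at 6.09, 2.33 and 6.78 CPM at 3 d and at 15.8, 9.70 and 15.0 CPM at 14 d. None of the groups overlapped, and both differences from control passed the test (3 d 2.67 ± 0.40, edgeR q = 0.00434; 14 d 4.09 ± 0.40, q = 1.85e-06). Genes at 0.1 to 1 CPM in control macrophages had a median of 0.333 CPM there and 2.1 CPM at 14 d. The 8 eosinophil and basophil markers also summed higher (42.3 to 122 CPM, and 16.2 to 42.6 at 3 d, against 1.79 to 5.27 in controls), and their part in *Il1rl1* was not tested. *Pycard*, which encodes the adaptor ASC that joins inflammasome sensors to caspase-1, was at 225, 246, 264 and 167 CPM in control monocytes and 404, 390, 352 and 245 CPM at 14 d (0.62 ± 0.18, q = 0.0481), with 14 d replicate 4 inside the control range.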
